A study of Homo sapiens with 29 samples.

Results

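MYC and the stretch of chromosome 8 around it were examined in 29 ATAC-seq peak lists of 22Rv1, a human prostate carcinoma cell line. ATAC-seq maps open chromatin by where a transposase can insert into DNA. All peaks of the 29 lists between positions 127850000 and 128850000 of chromosome 8 (build hg19) were merged where they overlapped or touched, which gave 72 regions of the 166696 in the whole series. Regions were numbered 1 to 72 in order along the chromosome. MYC lies at chr8:128748315-128753680, and lower positions are upstream of it.

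Parental 22Rv1 cells were treated for 3 h with 0.1% DMSO (the solvent control), with 20 uM of WX-02-23 or WX-02-43, which the labels call stereoprobes, or with 10 nM or 100 nM PladB, in 3 libraries each. PladB (pladienolide B) inhibits the SF3B complex of the spliceosome. Both engineered 22Rv1 lines overexpress Y36C-PHF5A, a form of an SF3B subunit with 1 amino acid changed, also in their controls. On top of it, the WT-FOXA1 line carries a doxycycline (Dox) inducible wild-type FOXA1 and the C258A-FOXA1 line an inducible FOXA1 with the C258A change. With Dox, both lines had 2 libraries each of DMSO, WX-02-23 (20 uM) and PladB (100 nM), and the WT-FOXA1 line also had 2 DMSO libraries without Dox. The labels do not say whether the lines are clones, whether libraries came from separate cultures, or whether endogenous FOXA1 was removed, so p-values measure only the spread between these libraries. The peak names carry a processing folder, which differs between the parental and the engineered lists, so the cell line and that processing cannot be told apart.

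MYC encodes a transcription factor that drives growth and division, and its gene is followed downstream by PVT1, a long non-coding RNA gene. The upstream side is known as a gene desert. It holds few protein-coding genes, many long non-coding RNAs and many enhancers, some of which contact the MYC promoter in prostate and other epithelial cells. FOXA1 is a pioneer factor that opens such enhancers in prostate cells. In the RefSeq order for GRCh38.p14, the genes from PCAT1 onward are PCAT1, PCAT2, PRNCR1, SRRM1P1, CASC19, CCAT1, CASC21, CASC8, CCAT2, POU5F1B, LOC105375754, CASC11, MYC and PVT1. PCAT1 is a prostate cancer associated long non-coding RNA, and POU5F1B is a retrogene of the pluripotency factor gene POU5F1. Only the position of MYC was used in hg19, so regions are given by position and distance, and none was assigned to PCAT1, POU5F1B or another gene. Marker genes of the cell line were not analysed here.

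The lists held 82538 to 98193 peaks in parental and 62832 to 92658 in engineered libraries. The lowest background at any summit on chromosome 8, a relative measure of depth, ran from 0.546 to 1.502 reads. The weakest peaks called on that chromosome had 5 to 8 reads at the summit. Where the local background is higher, more reads are needed for a call. Absence of a peak therefore does not show closed chromatin. Fold enrichment, given below for each peak, is the authors' own ratio of summit reads to local background. It describes a peak within its list and was not tested between lists.

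The window held more regions than most 1 Mb stretches of the series, and it was not compared with other gene deserts. A 1 Mb stretch of the series held a median of 54 regions over 3021 stretches, and 76.4% of them held fewer than 72. Upstream of MYC lay 63 regions, 1 overlapped the gene and 8 lay downstream. Together the regions covered 32867 bases, or 3.29% of the window. The largest stretch without a peak in any library spanned 87.7 kb, from 128114304 to 128201996. In steps of 100 kb relative to the MYC start, the count was lowest from -500 to -400 kb, with 3 regions. It was highest from -700 to -600 kb and from -200 to -100 kb, with 11 each.

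Some of these regions had a peak in every library and most did not. A peak was present in all 29 libraries at 11 regions, 15.3% of the window against 21.5% of the series. A further 11 were seen in exactly 1 library, 15.3% against 16.9% of the series, and the other 50 in 2 to 28 libraries. Regions held by all libraries had a median fold of 10.1 and a median width of 743 bp. Those held by 2 to 28 libraries had a median fold of 5.71, and those of 1 library had 5.10 and a median width of 150 bp, the narrowest a peak could be. The more widely shared regions were thus also the taller and wider ones. Since a peak must pass a detection limit, sharing and height are not independent.

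**Figure D1:**
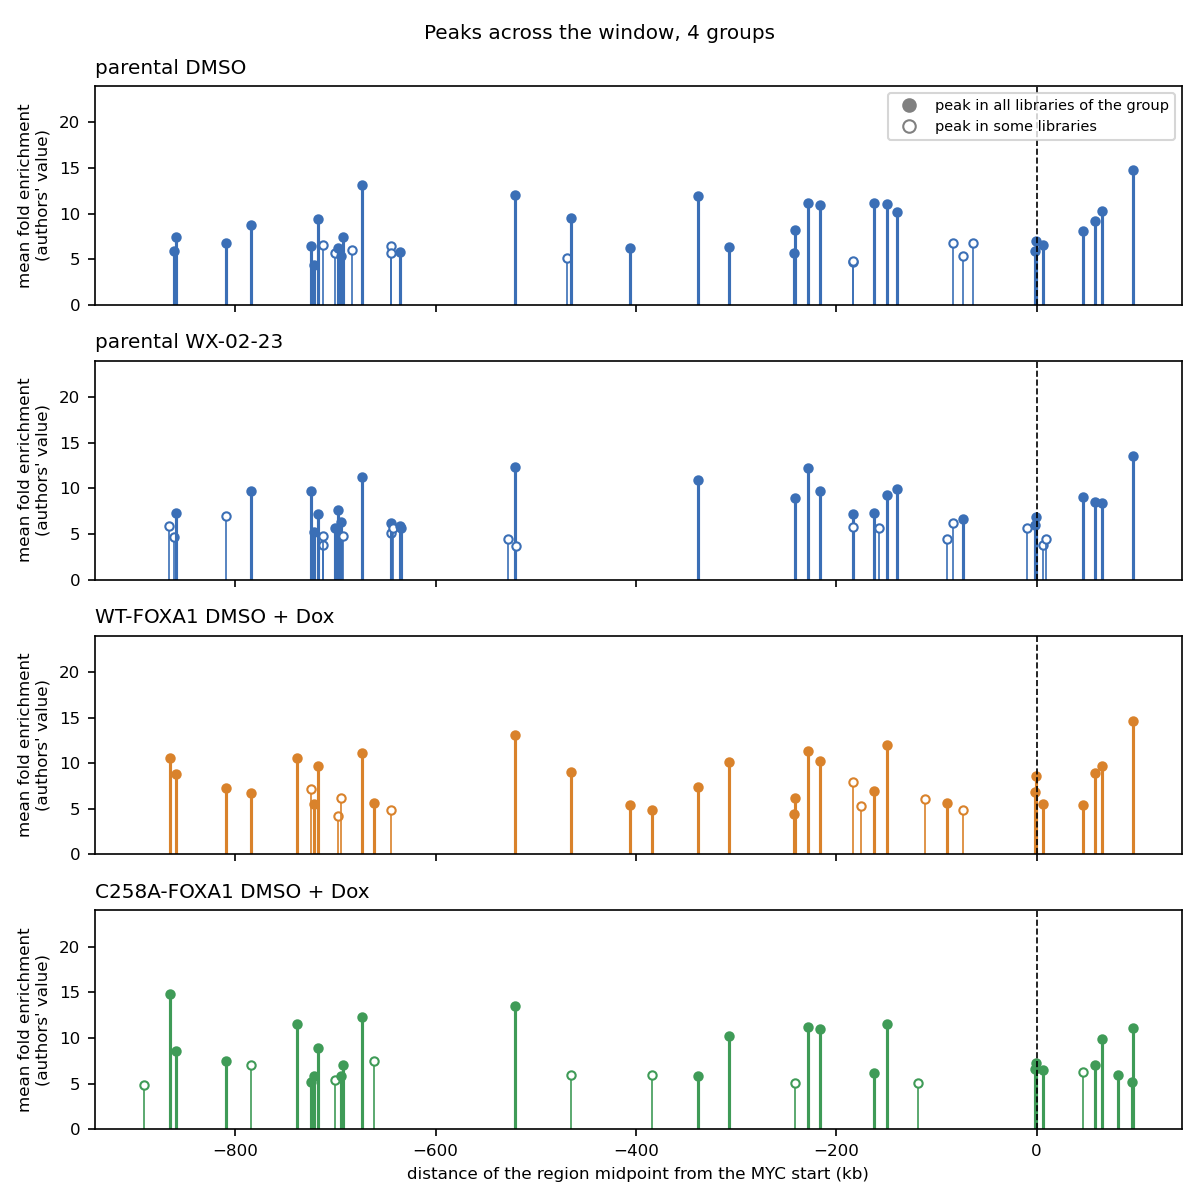
Mean fold enrichment (vertical axis, the authors' value) of each region in the libraries with a peak, against the distance of its midpoint from the MYC start in kb (horizontal axis), for parental DMSO, parental WX-02-23, WT-FOXA1 DMSO with Dox and C258A-FOXA1 DMSO with Dox. Filled dots mark regions with a peak in all libraries of the group and open dots those with a peak in some, the dashed line marks the MYC start, and regions 21, 30 and 72 are filled in all 4 groups.

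The 11 regions shared by all libraries outlined the constant part of the locus. Upstream they were regions 5, 13, 21, 30, 45, 46 and 54, which lay 859, 717, 673, 521, 228, 217 and 149.9 kb from the MYC start. Regions 63 and 64 lay at the promoter. Region 68 (chr8:128805984-128807428) lay 58.4 kb downstream and was the widest of the window at 1445 bp, and region 72 (chr8:128843808-128844330) lay 95.8 kb downstream at its end. Between region 30 and region 45, from 128227895 to 128519588, no region was shared by all libraries over 291.7 kb.

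Region 72 had the highest mean fold in parental DMSO, and regions are called tall here by fold. By summit reads it stood below the MYC promoter, with 45, 61 and 49 reads against 72, 70 and 82 at region 64. The fold of region 72 in the 3 parental DMSO libraries was 14.3, 16.7 and 13.4, a mean of 14.8 ± 1.72 (SD, n = 3). Over all 29 libraries it ran from 8.07 to 16.7. Next in parental DMSO came region 21 (chr8:128074351-128075309), with a mean of 13.1 ± 1.14 (SD, n = 3), and region 30 (chr8:128227222-128227895), with 12.01 ± 0.690. The values of region 21 overlapped with those of both others, so its place in this order was not resolved. Region 45 (chr8:128519588-128520346), region 54 (chr8:128598143-128598763) and region 46 (chr8:128531196-128531938), also shared by all libraries, had means of 11.2 ± 1.12, 11.01 ± 1.37 and 10.997 ± 0.238 (SD, n = 3).

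The other 4 of the 10 tallest regions in parental DMSO were not shared by all libraries. Region 37 (chr8:128410308-128410982, 338 kb upstream) had a fold of 10.5, 12.5 and 12.7 in parental DMSO, against 8.88 and 5.96 in WT-FOXA1 DMSO and 6.29 and 5.36 in C258A-FOXA1 DMSO, both with Dox. It held a peak in 26 libraries. Region 52 (chr8:128585619-128586218, 162 kb upstream) also held a peak in 26 libraries and had a fold of 11.5, 12.2 and 9.78 in parental DMSO, 5.18 and 8.67 in WT-FOXA1 DMSO and 6.88 and 5.45 in C258A-FOXA1 DMSO. At both regions every parental DMSO value was above every value of the engineered DMSO libraries with Dox. Region 69 (chr8:128812960-128814052, 65.2 kb downstream) held a peak in 28 libraries and had a parental DMSO mean of 10.3 ± 0.428 (SD, n = 3).

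Region 55 was the last of the 10 tallest and had the sharpest split between the lines. At chr8:128608458-128608954, 139.6 kb upstream of MYC, it had a peak in 15 of 15 parental libraries and in 0 of 14 engineered ones. Its fold was 12.5, 9.28 and 8.85 in parental DMSO and 7.43 to 12.5 over all parental libraries, from 13 to 23 summit reads. In the whole series 0.614% of regions had this pattern. No region of the window had the reverse one, which 0.101% of the series had. Less strictly, 23 regions had a peak in some parental and no engineered library and 12 the reverse, against 25.2% and 18.5% of all regions of the series. This pattern was singled out after its values were seen, and the line, the expressed Y36C-PHF5A and the processing folder cannot be told apart in it.

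**Figure D2:**
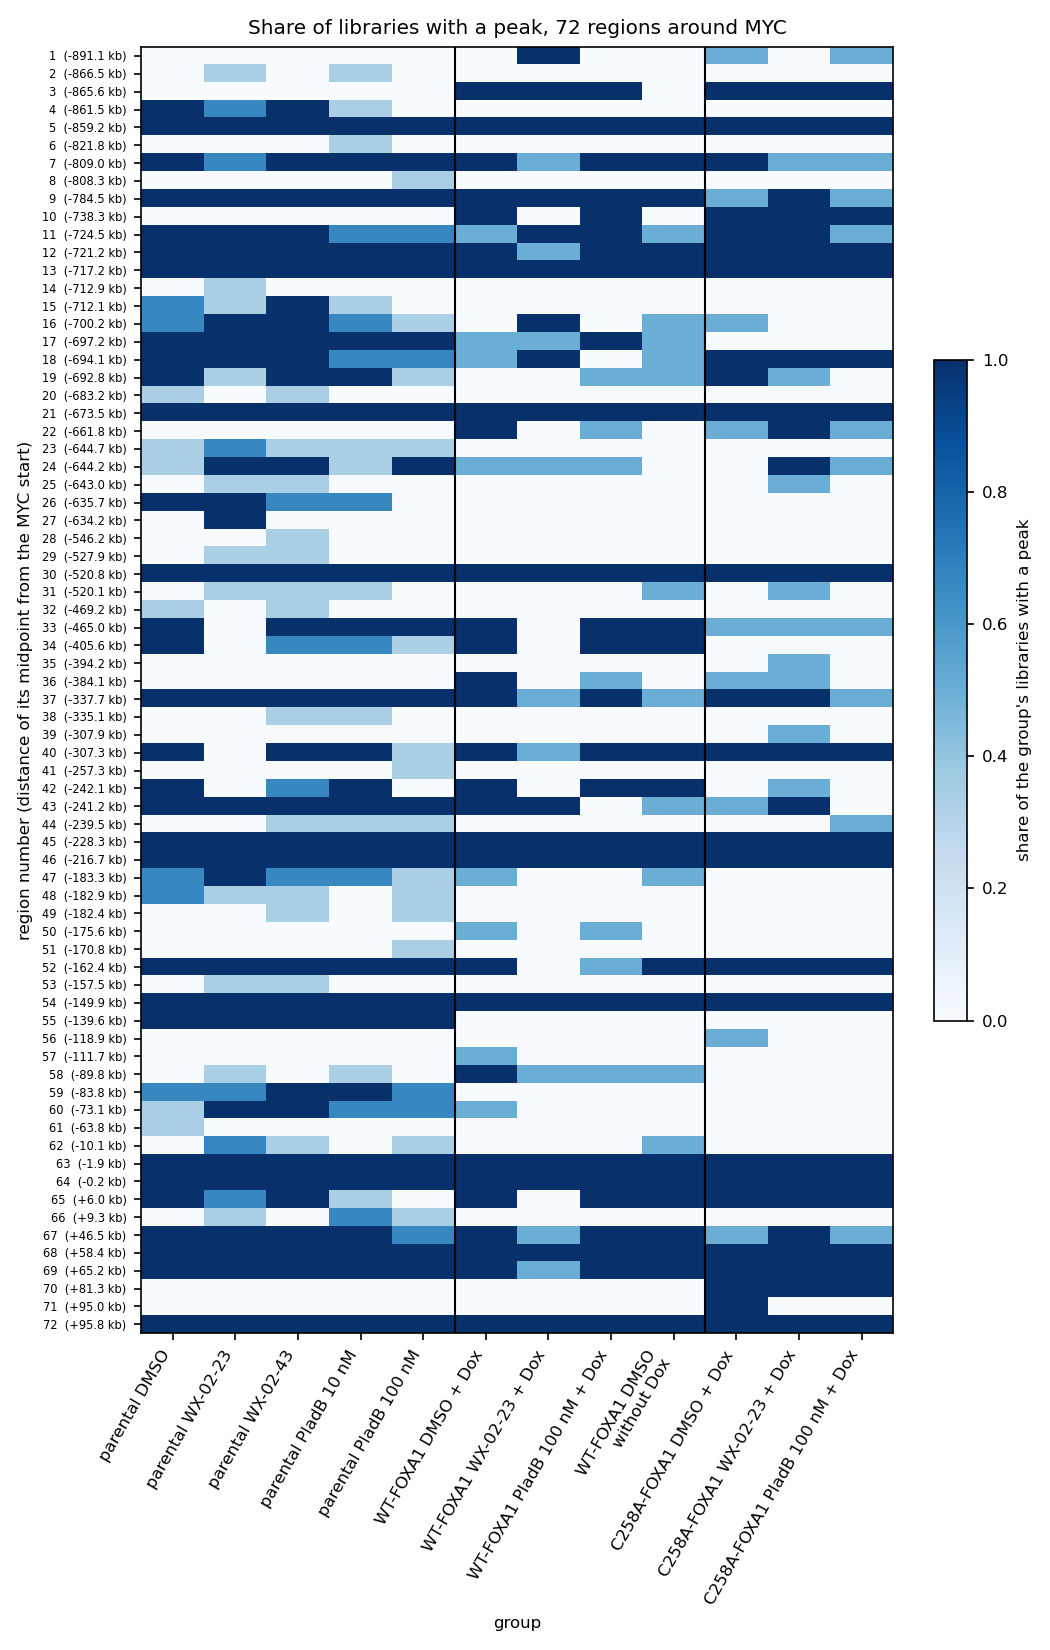
Share of the libraries of each group with a peak (colour, 0 white to 1 dark blue) at each of the 72 regions (rows, numbered, with the distance of the midpoint from the MYC start in kb) in the 12 groups (columns). Vertical lines separate parental, WT-FOXA1 and C258A-FOXA1 libraries, and the 11 rows dark throughout are the regions with a peak in all 29 libraries.

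The MYC promoter was open in every library and under every treatment. Region 64 (chr8:128747386-128748819, 1434 bp) spans the MYC start, and its main summit lay 75 to 193 bp past that start in all 29 libraries. Its summit held 72, 70 and 82 reads in parental DMSO, 76, 77 and 69 with WX-02-23, and 71, 79 and 74 with WX-02-43. With PladB it held 72, 64 and 66 reads at 10 nM and 63, 69 and 62 at 100 nM. The 100 nM PladB values were below every DMSO value, but the local background was lower too, and the fold was 7.30, 7.64 and 7.86 against 6.82, 6.33 and 7.97. The fold values of these groups overlapped.

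In the engineered lines the promoter was likewise retained. The WT-FOXA1 line with Dox had 86 and 76 summit reads with DMSO, 52 and 58 with WX-02-23, 65 and 71 with PladB, and 78 and 66 with DMSO and no Dox. The 2 WX-02-23 libraries had the fewest reads of that line. They also had the lowest local background at this region, 6.39 and 6.72 reads, and shorter lists than the DMSO libraries with Dox. Their lowest background on chromosome 8, the relative measure of depth, was not lower. It was 0.903 and 1.256 reads against 0.869 and 0.844 in those DMSO libraries. The fold with WX-02-23, 7.17 and 7.64, lay below the 8.93 and 8.32 of DMSO with Dox. In the C258A-FOXA1 line the fold was 6.75 and 7.73 with DMSO, 7.80 and 7.22 with WX-02-23, and 7.61 and 7.66 with PladB, and these ranges overlapped. Region 63 (chr8:128746213-128746649), centred 1.88 kb upstream, was also present in all 29 libraries, with a fold between 5.20 and 7.42.

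The region just past the end of MYC behaved differently from the promoter. Region 65 (chr8:128753821-128754731) begins 141 bp beyond the annotated MYC end. In parental cells its summit held 35, 41 and 38 reads with DMSO and 42, 52 and 38 with WX-02-43. With WX-02-23 it held 16 and 15 reads, and the third replicate had no peak. At 10 nM PladB only the first replicate had a peak, with 14 reads, and at 100 nM no library had one. The WX-02-23 and PladB values thus lay below every DMSO and WX-02-43 value at region 65.

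The engineered lines had a lower and partly different pattern at region 65. The WT-FOXA1 line with Dox had 19 and 22 summit reads with DMSO, 13 and 18 with PladB, and no peak in either WX-02-23 library. The same line had 20 and 21 reads without Dox. The C258A-FOXA1 line had 29 and 32 reads with DMSO, 15 and 24 with WX-02-23, and 15 and 22 with PladB. Unlike in parental cells, every engineered library with PladB had a peak there, with fewer summit reads than either DMSO library with Dox of its line. These libraries differ from the parental ones in Y36C-PHF5A, Dox and processing folder, which cannot be told apart. Over the 3 lines region 65 had a peak in 7 of 7 DMSO libraries against 4 of 7 with WX-02-23 (exact stratified p = 0.167) and 4 of 7 with 100 nM PladB (exact p = 0.1), and both p-values were 1 after adjustment over all regions. Whether PladB acted differently in the lines was not tested.

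A pair of places close to MYC had a peak in few libraries. Region 66 (chr8:128757506-128757789), 3826 bp past the MYC end, had a peak in 2 libraries with 10 nM PladB, 1 with 100 nM PladB and 1 with WX-02-23, all parental, with 9 to 13 summit reads. Region 62, 10.1 kb upstream of the start, had a peak in 5 libraries.

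**Figure D3:**
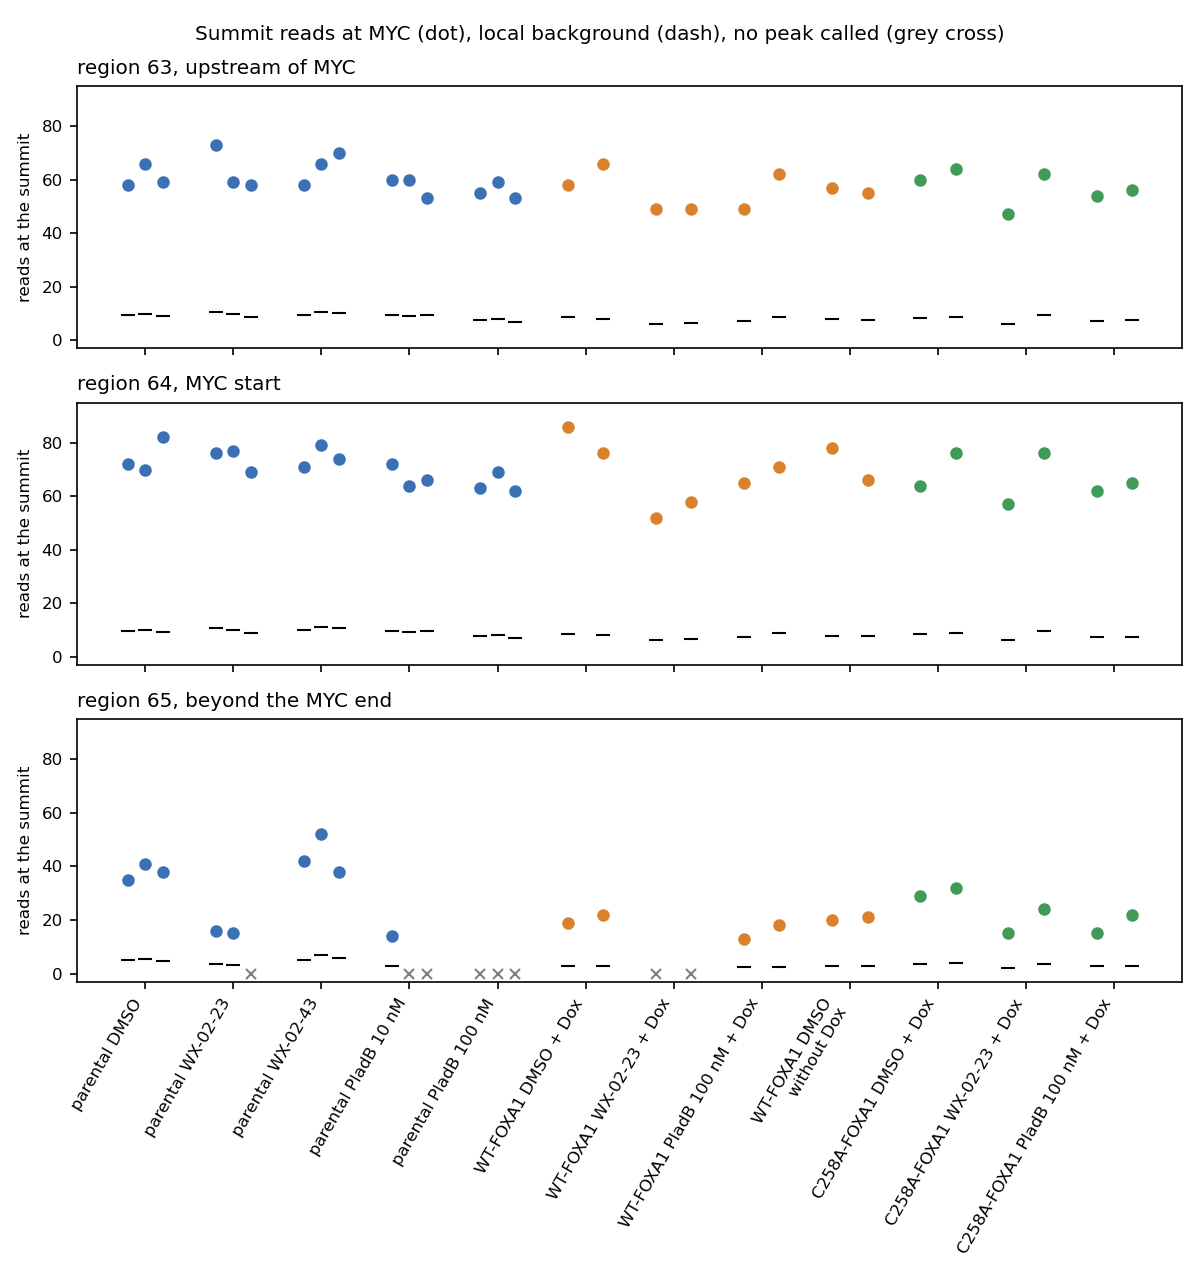
Reads at the summit (vertical axis) of regions 63, 64 and 65 in each library (dots, coloured by line), by group (horizontal axis). Black dashes give the local background in reads and grey crosses at 0 mark libraries with no peak called; region 65 lacks a peak in all 3 parental libraries with 100 nM PladB and in both WT-FOXA1 libraries with WX-02-23.

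The comparison of WX-02-23 with DMSO asked whether this stereoprobe changes where chromatin is open. In parental cells it did not change how many of the 72 regions had a peak by more than the replicate spread. The counts were 38, 36 and 33 with WX-02-23 and 34, 37 and 38 with DMSO. The difference of means was -0.667 (exact two-sided permutation p = 0.8, adjusted p = 0.8 over 5 parental comparisons, smallest possible p 0.1), and single-library differences ran from -5 to 4. A few regions differed fully in presence of a peak, though no single region was tested in parental cells alone. Of 52 regions with a peak in any of these 6 libraries, 1 was gained (a peak in all treated and no DMSO library), 1.92% against 1.82% over the series. The share gained was near that of the series. A further 4 were lost (the reverse), 7.69% against 1.18% over the series. No test was made of the window's share against that of the series.

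The gained region was region 27 (chr8:128113836-128114304, 634 kb upstream). Its fold was 6.47, 4.88 and 5.67 in the parental WX-02-23 libraries, with 18, 12 and 13 summit reads. No other library of the study had a peak there, a pattern held by 0.214% of all regions. WX-02-23 libraries of neither engineered line had a peak at region 27. The call ended when 50% of the region had to be covered.

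All 4 lost regions lay between 242 and 465 kb upstream, within the 291.7 kb stretch that has no region shared by all libraries. By the rule a lost region cannot be shared by all libraries, so this coincidence is partly fixed in advance. Region 33 (chr8:128283005-128283534) was the tallest, with a fold of 7.74, 10.5 and 10.5 in parental DMSO. It had a peak in all 12 parental libraries without WX-02-23 and in none of the 3 with it, a pattern held by 0.1% of the series. In the WT-FOXA1 line it had a fold of 8.74 and 9.22 with DMSO and Dox, 7.73 and 8.77 with PladB and 8.63 and 8.43 without Dox, and again no peak in either WX-02-23 library. In the C258A-FOXA1 line it had a peak in 1 of 2 libraries with each treatment, with a fold of 5.90 with DMSO, 6.07 with WX-02-23 and 5.67 with PladB. Only 3 of the 6 libraries of that line thus had a peak at region 33.

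Region 34 (chr8:128342427-128342977, 406 kb upstream) was a low peak, lost with WX-02-23 in the parental and the WT-FOXA1 line. Its fold was 5.32, 6.99 and 6.25 in parental DMSO and 5.35 and 5.42 in WT-FOXA1 DMSO with Dox. None of the 7 WX-02-23 libraries and none of the 6 C258A-FOXA1 libraries had a peak there. In parental cells PladB libraries also lacked it in part, with a peak in 2 of 3 at 10 nM and 1 of 3 at 100 nM. Region 34 was the one region of the 49 that varied among the WX-02-23 and DMSO libraries of the 3 lines with an unadjusted p under 0.05 (0 of 7 against 5 of 7, exact p = 0.0167, adjusted p = 1). In the series 0.802% of regions were lower and 0.47% higher at that level, and after adjustment over 105227 regions 0% were called in either direction.

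Region 40 (chr8:128440780-128441195, 307 kb upstream) lost its peak with WX-02-23 in parental cells and mostly kept it in the engineered lines. With 100 nM PladB only 1 of 3 parental libraries had a peak there, with a fold of 4.66. Parental DMSO had a fold of 5.85, 5.99 and 7.29. WT-FOXA1 DMSO had 8.88 and 11.4 and 1 of its 2 WX-02-23 libraries had a peak, at 7.09. C258A-FOXA1 kept it in every library, at 9.14 and 11.3 with DMSO, 6.07 and 8.35 with WX-02-23 and 7.57 and 8.19 with PladB. Over the lines this came to 3 of 7 against 7 of 7 (exact p = 0.05), and region 33 to 1 of 7 against 6 of 7 (exact p = 0.05), both 1 when adjusted. Region 42 (chr8:128506068-128506390, 242 kb upstream) had a fold of 6.82, 5.60 and 4.65 in parental DMSO, and no peak in parental WX-02-23 or parental 100 nM PladB. In the WT-FOXA1 line with Dox it had 4.28 and 4.59 with DMSO and no peak with WX-02-23. The only peak at region 42 in the C258A-FOXA1 line was in WX-02-23 replicate 2, with a fold of 5.21. With 50% of the region covered, the calls of regions 34 and 40 in parental cells ended and those of regions 33 and 42 held, while that of region 42 ended at a q-value of 1e-05 or below.

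**Figure D4:**
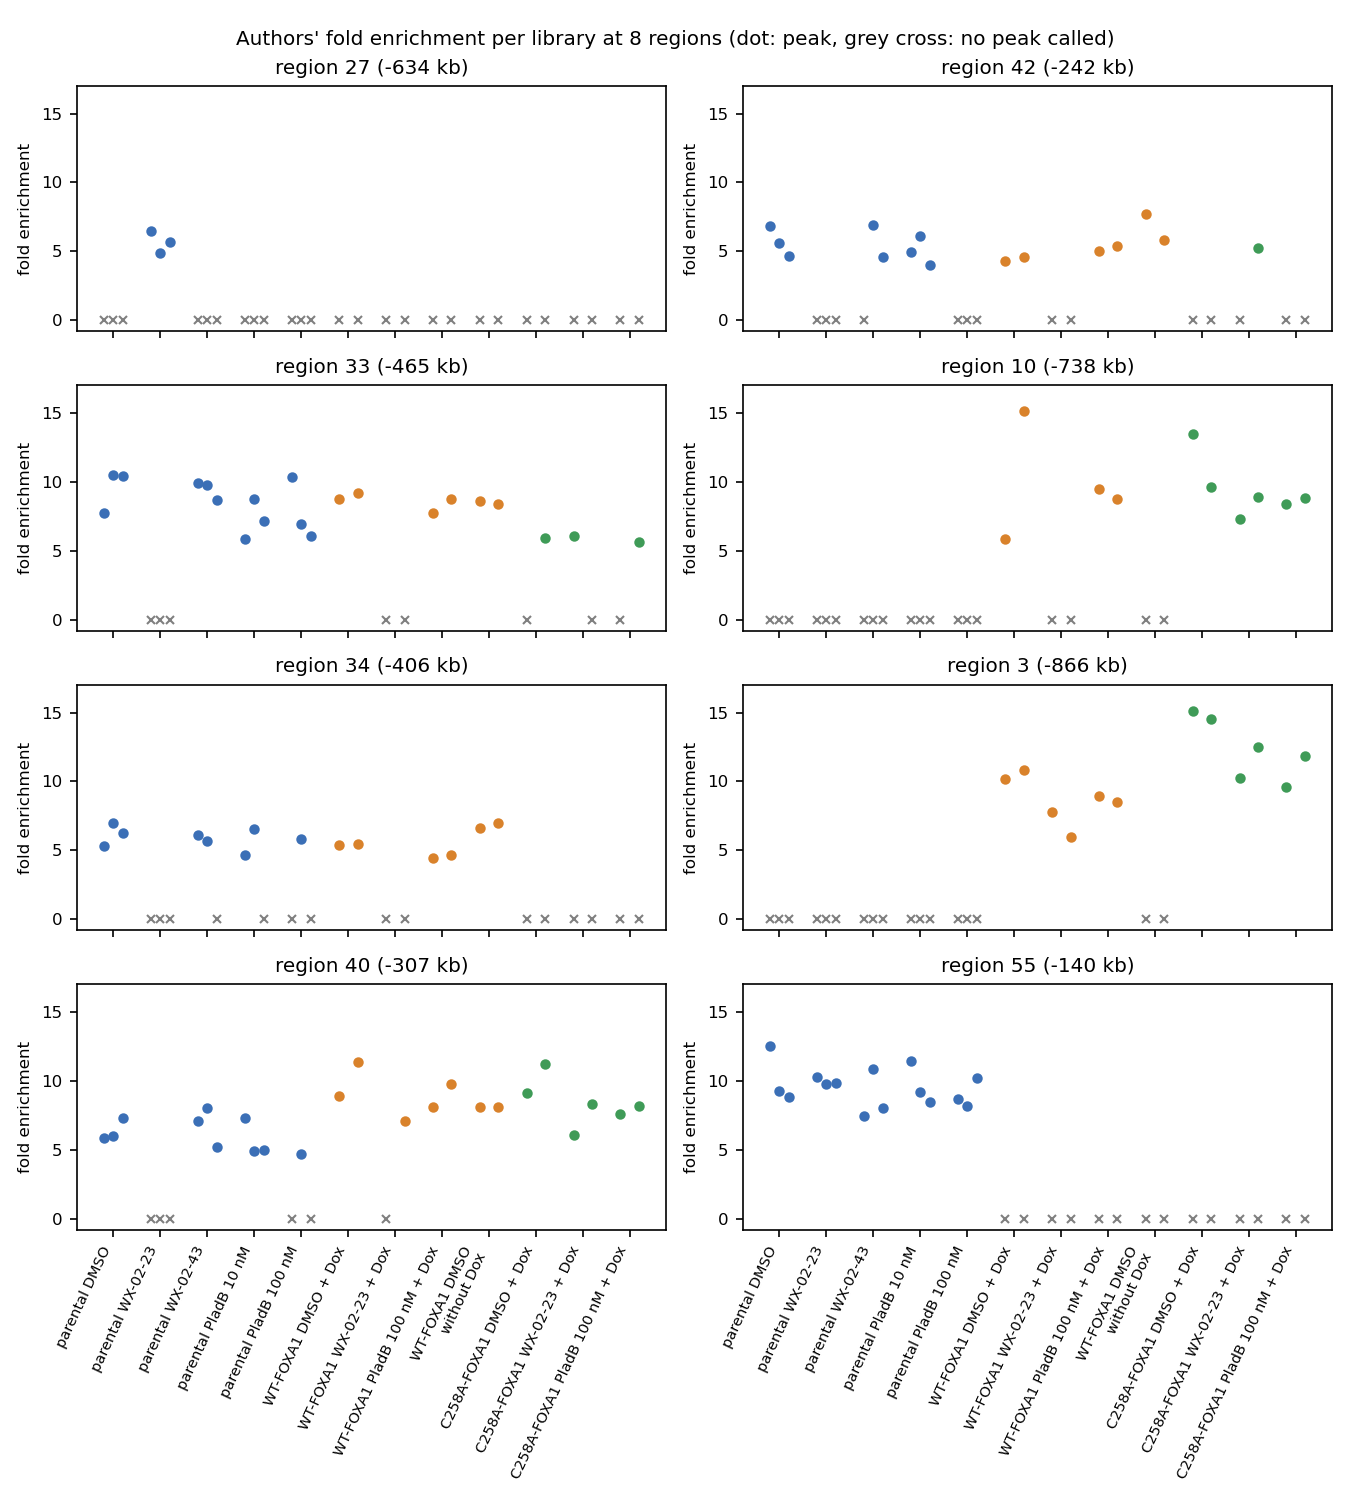
Fold enrichment (vertical axis, the authors' value) in each of the 29 libraries at 8 regions (panels, with the distance from the MYC start), by group (horizontal axis). Dots are libraries with a peak, coloured by line, and grey crosses at 0 are libraries with no peak called; region 33 lacks a peak in all 5 parental and WT-FOXA1 libraries with WX-02-23, and region 27 has one in the 3 parental WX-02-23 libraries only.

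WX-02-43, at the same dose and time, was compared with DMSO and with WX-02-23. The libraries with WX-02-43 had 42, 42 and 36 regions with a peak, a difference of 3.67 from DMSO (exact p = 0.3, adjusted p = 0.5). Per 10000 peaks of the list it was 0.458 (exact permutation p = 0.1, the smallest possible, unadjusted). The WX-02-43 rates of 4.35, 4.28 and 4.30 lay above the DMSO rates of 3.71, 3.77 and 4.08. No region was gained or lost of 51 with a peak in any WX-02-43 or DMSO library, where the series had 0.34% gained and 0.369% lost. Set directly against WX-02-43, WX-02-23 had 4.33 fewer regions (exact p = 0.3, adjusted p = 0.5), with single-library differences from -9 to 2. Per 10000 peaks of the list the difference was -0.584 (exact permutation p = 0.1, the smallest possible, unadjusted). The WX-02-23 rates of 3.90, 3.84 and 3.45 lay below every WX-02-43 rate. Of 55 regions 1 was gained in WX-02-23 libraries, region 27, against 1.6% in the series. The lost ones were 2, regions 33 and 40, or 3.64% against 1.07%. Region 33 had a fold of 9.92, 9.75 and 8.66 with WX-02-43, and region 40 had 7.12, 8.02 and 5.20. At regions 34 and 42 WX-02-43 had a peak in 2 of 3 libraries, so these did not meet the rule. This was the only pair of stereoprobes compared, and the counts do not show that the compounds act alike.

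In parental cells fewer regions had a peak with 100 nM PladB, but this was not resolved after adjustment. The libraries had 30, 33 and 27 regions with a peak, each below every DMSO library, a difference of -6.33 (exact p = 0.1, the smallest possible, adjusted p = 0.5). Their lists were also shorter, with a mean of 84547 peaks against 94298 with DMSO. Their lowest background on chromosome 8, the relative measure of depth, was lower too. It was 0.734, 0.718 and 0.662 reads, against 0.881, 1.002 and 0.921 with DMSO. Per 10000 peaks of the list the difference was -0.309 (exact permutation p = 0.3). No region was gained (0.187% in the series) and 4 of 49 were lost, 8.16% against 1.68%. These were regions 4 (chr8:127886407-127887178), 26 (chr8:128112289-128112919), 42 and 65. Region 65, next to MYC, had the most summit reads of the 4 in parental DMSO. Region 4 had a fold of 7.50, 4.83 and 5.41 in parental DMSO and no peak in any engineered library. Region 26 had 8.67, 4.99 and 3.57 in parental DMSO, the last of these from only 6 summit reads, and likewise no engineered peak. Without replicate 2 of 100 nM PladB, 7 regions were lost. With lists of equal length the calls of regions 26 and 42 ended and those of regions 4 and 65 held.

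At 10 nM PladB the counts of 39, 35 and 31 overlapped with DMSO, a difference of -1.33 (exact p = 0.7, adjusted p = 0.8). No region was gained or lost of 49, where the series had 0.408% and 0.556%. Of the regions lost at 100 nM, regions 4 and 65 each had a peak in 1 of 3 libraries at this dose, between the 3 of 3 of DMSO and the 0 of 3 of 100 nM. Region 26 had a peak in 2 of 3 libraries at 10 nM, and region 42 in 3 of 3, as with DMSO. The doses were not compared by a test.

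Over the 3 lines together the window had fewer peaks with 100 nM PladB. The mean within-line difference was -4.78 regions (exact permutation within lines, 720 arrangements, p = 0.00833, adjusted p = 0.0167 over 2 treatments). The lists with PladB were also shorter on average in each line. The lowest background on chromosome 8, the relative measure of depth, was lower in every parental and C258A-FOXA1 library with 100 nM PladB. In C258A-FOXA1 it was 0.546 and 0.587 reads against 0.750 and 0.866 with DMSO. In WT-FOXA1 it overlapped, at 0.789 and 0.939 against 0.869 and 0.844. Whether depth accounts for the fewer regions was not tested. Per 10000 peaks of the list the difference was -0.192 (exact p = 0.0694), and with lists of equal length it was -1.28 regions (exact p = 0.144), so the call ended once list length was taken into account. None of 43 varying regions reached an unadjusted p under 0.05, against 0.315% lower and 0.0106% higher in the series, and 0% were called after adjustment. For WX-02-23 the mean difference was -3.06 regions (exact p = 0.222, adjusted p = 0.222), and -0.0615 per 10000 peaks (exact p = 0.689). It turned to 0.944 with lists of equal length (exact p = 0.419) and was -5.83 with 50% of a region covered (exact p = 0.025).

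**Figure D5:**
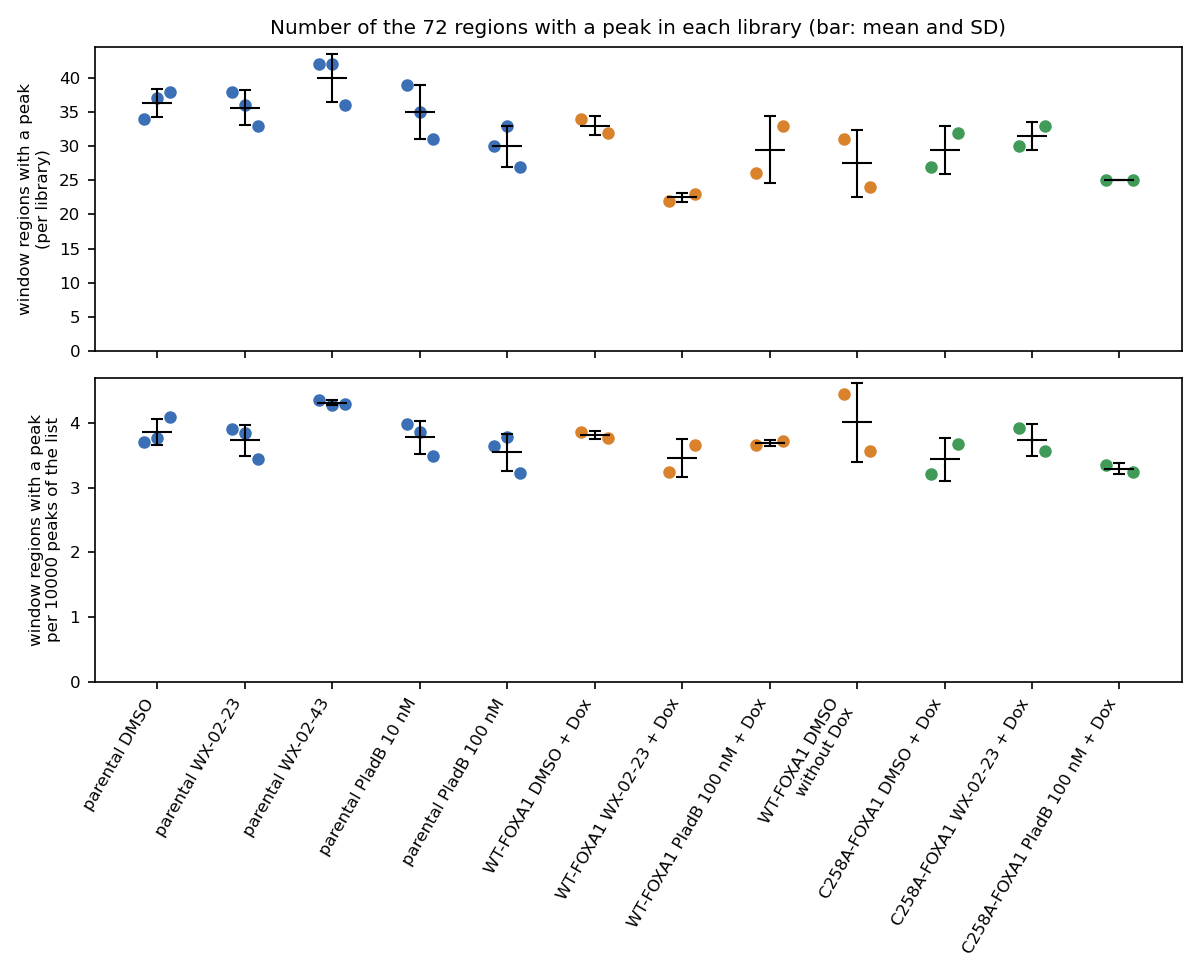
Number of the 72 regions with a peak in each library (upper panel) and the same per 10000 peaks of that library's list (lower panel), by group (horizontal axis). Dots are libraries, coloured by line, and bars give the mean and SD; WT-FOXA1 libraries with WX-02-23 are lowest in the upper panel, at 22 and 23, and overlap with other groups in the lower one.

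Dox, which induces FOXA1 in the WT-FOXA1 line, went with new peaks far upstream. DMSO libraries had 34 and 32 regions with a peak with Dox and 31 and 24 without, and no test was made with 2 libraries a group. Of 41 regions 4 were gained with Dox, or 9.76% against 13.2% in the series, and none was lost against 1.1%. The share gained in the window was thus close to that of the series. Per 10000 peaks the difference turned to -0.195, and the lists without Dox were shorter. With lists of equal length the difference in the number of regions turned negative as well.

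Region 3 (chr8:127882473-127882904, 866 kb upstream) was the clearest of the 4. Its fold was 10.2 and 10.9 in WT-FOXA1 DMSO, 7.81 and 5.93 with WX-02-23 and 8.91 and 8.52 with PladB, all with Dox. In the C258A-FOXA1 line it was 15.1 and 14.6, 10.2 and 12.5, and 9.62 and 11.8 with the same treatments. No parental library and neither library without Dox had a peak at region 3. It was thus present in all 12 libraries with Dox and in no other, a pattern held by 1.46% of the series and singled out after the values were seen. Within each line, the WX-02-23 and the PladB values all lay below both DMSO values.

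Region 10 (chr8:128009757-128010183, 738 kb upstream) was gained with Dox and lost with WX-02-23 in the WT-FOXA1 line. With Dox its fold was 5.88 and 15.2 in WT-FOXA1 DMSO and 9.50 and 8.77 with PladB, and neither WX-02-23 library had a peak. In the C258A-FOXA1 line it was 13.5 and 9.65 with DMSO, 7.28 and 8.87 with WX-02-23 and 8.41 and 8.82 with PladB. It was the one region of the window gained with Dox, lost with WX-02-23 in the WT-FOXA1 line and present in all C258A-FOXA1 libraries, where 0.569% of the series had this pattern. Both calls ended with lists of equal length and with 50% of the region covered. The Dox and WX-02-23 comparisons share the WT-FOXA1 DMSO libraries with Dox. Regions 22 (chr8:128086342-128086768) and 36 (chr8:128364018-128364364) were also gained with Dox, with 7 to 12 summit reads in WT-FOXA1 DMSO, close to the detection limit. With lists of equal length, only region 3 of the 4 kept its gain.

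In the WT-FOXA1 line with Dox, WX-02-23 libraries had fewer regions with a peak. They had 22 and 23 against 34 and 32 with DMSO, a difference of -10.5 with groups that did not overlap. Their lists were also shorter, and with lists of equal length the difference was 0.5. Their lowest background on chromosome 8, the relative measure of depth, was 0.903 and 1.256 reads, not below the 0.869 and 0.844 of DMSO. Why the lists were shorter was not tested. Of 39 regions 8 were lost, 20.5% against 11.7% in the series, and with lists of equal length 2. Regions 33 and 65 were the 2 that stayed lost. The other 6 were regions 10, 22, 34, 36, 42 and 52, and region 52 had a fold of 5.18 and 8.67 with DMSO. Regions 1 (chr8:127857059-127857453, at the upstream end of the window) and 16 (chr8:128047770-128048418) were gained, 5.13% against 1.31%, each from 8 to 10 summit reads.

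Of the 4 regions lost in parental cells with WX-02-23, 3 were also lost in the WT-FOXA1 line, regions 33, 34 and 42. They made up 75% of the parental list and 37.5% of the WT-FOXA1 list. Over the series, 21.7% of the parental list and 2.74% of the WT-FOXA1 list were shared. These comparisons have no library in common. With lists of equal length, of these 3 only region 33 stayed lost in the WT-FOXA1 line. Of the parental 4, only region 40 in the C258A-FOXA1 line had a peak in both DMSO libraries and could be called lost, and it had a peak in both WX-02-23 libraries.

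In the C258A-FOXA1 line, WX-02-23 left the counts overlapping. They were 30 and 33 with WX-02-23 and 27 and 32 with DMSO, a difference of 2. Of 40 regions 1 was gained, region 24 (chr8:128103986-128104321), or 2.5% against 2.37% in the series. The lost one was region 71 (chr8:128843236-128843469), or 2.5% against 2.55%. Both shares were near those of the series. The change with WX-02-23 differed by -12.5 regions between WT-FOXA1 and C258A-FOXA1 (exact permutation of line labels within treatment, 36 arrangements, p = 0.111, smallest possible p 0.0556), and by -0.659 per 10000 peaks (exact p = 0.167), so it was not shown to differ between the lines. Region 70 (chr8:128829442-128829884, 81.3 kb downstream), singled out after its values were seen, had a peak in all 6 C258A-FOXA1 libraries and no other, with a fold of 4.59 to 7.21. In the series 0.155% of regions were in all C258A-FOXA1 and no WT-FOXA1 libraries. That share leaves the parental libraries out, so it is of a looser pattern than that of region 70.

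PladB at 100 nM in the engineered lines called few regions of the window, named here after their values were seen. In the WT-FOXA1 line the counts were 26 and 33 against 34 and 32 with DMSO, and 1 of 38 regions was lost, region 43 (chr8:128506865-128507354), 2.63% against 3.05% in the series. None was gained (0.915% in the series). In the C258A-FOXA1 line the counts were 25 and 25 against 27 and 32, and 2 of 36 regions were lost, regions 19 (chr8:128055294-128055747) and 71, 5.56% against 4.67%. None was gained (0.806% in the series). Of the 4 regions lost with 100 nM PladB in parental cells, regions 4 and 26 had no peak in the engineered lines and could not be called lost there. Region 65 had a peak in both PladB libraries of each engineered line, and region 42 in both of the WT-FOXA1 line.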

How the data were processed

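ATAC-seq was measured in 29 libraries of 22Rv1 cells, and each deposited list holds the peaks of 1 library. Per the submitters' processing notes, Bowtie2, MACS2 and hg19 were used; the sources used here give no version, duplicate removal or read shift. For each peak the authors deposited a score, a fold enrichment (ratio), the −log10 of the p-value and of the q-value, and the summit's distance from the peak start. The lowest −log10 q was 2, a cut at q = 0.01 set by the authors.

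Lists were merged over the autosomes, X and Y, and presence meant an overlap of at least 1 bp. Summit reads and local background were recovered from the fold and −log10 p, taken as MACS2's (reads + 1)/(background + 1) and Poisson tail; whole reads fitted 100% of peaks on chromosome 8 in every list (tolerance 0.01). Numbers of regions were tested by exact two-sided permutation, and presence per region by an exact test stratified by line, both with Benjamini-Hochberg adjustment, in Python 3.11.15, numpy 2.4.6, pandas 2.3.3 and scipy 1.17.1. The call rule was run on simulated gains and losses that met the rule by construction. It counted 100% of them, which checks the counting only and not whether real changes are found. The smallest p for 3 lines is 0.00278, so that many regions must reach it before adjustment calls any.

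Named were regions within 5 kb of MYC, the 10 tallest in parental DMSO, those gained or lost in parental, WX-02-23 or Dox comparisons, the widest, and both ends. The window and these lists were chosen with earlier results of these data known. Alternatives were a stricter q-value, lists cut to equal length, 50% coverage, summit windows, a looser call rule, a rate per 10000 peaks, a replicate block and leaving out each library. Coordinates of genes other than MYC were not used, as the annotation at hand is of another build.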

Additional observations from a re-analysis of the deposited data

How the results depend on the processing

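Of 72 alternative values for differences in the number of regions, 59 kept their direction and side of the threshold, and so did 82 of 86 with 1 library left out. Of 100 alternative counts of gained or lost regions, 58 stayed within 1.5 times. Presence without a peak depends on depth, and most lost regions had few summit reads, so these counts carry little precision. The causes of the changes below were not tested.

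With lists of equal length, the difference with WX-02-23 turned to 0.5 in the WT-FOXA1 line and to 0.944 over 3 lines (exact permutation p = 0.419). With PladB it turned to 0.5 in the WT-FOXA1 line and was -1.28 over 3 lines. With Dox it turned to -5. The counts lost became 2 for parental 10 nM PladB, 5 for WX-02-23 against WX-02-43, 2 for WT-FOXA1 WX-02-23, 0 for WT-FOXA1 PladB, 3 for Dox, 0 for C258A-FOXA1 WX-02-23 and 1 for C258A-FOXA1 PladB. The counts gained became 1 for WT-FOXA1 PladB, 1 for Dox and 2 for C258A-FOXA1 WX-02-23.

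With 50% of a region covered, the difference with WX-02-23 was -14 in the WT-FOXA1 line, -1.5 in the C258A-FOXA1 line and -5.83 over 3 lines (exact permutation p = 0.025). Gained became 0 for parental WX-02-23 against DMSO and against WX-02-43, and 0 for WT-FOXA1 WX-02-23. Lost became 2 for 10 nM PladB, 5 for WX-02-23 against WX-02-43, 0 for WT-FOXA1 PladB, 1 for Dox and 1 for C258A-FOXA1 PladB. With windows of 100 bp on each side of summits, the C258A-FOXA1 WX-02-23 difference was -0.5. At q of 1e-05 or below, gained became 2 for parental WX-02-23, 0 for WT-FOXA1 WX-02-23, 2 for Dox and 2 for C258A-FOXA1 WX-02-23. Lost became 2 for 10 nM PladB, 3 for WT-FOXA1 PladB and 1 for Dox.

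When 1 library could go against the rule, gained and lost counts rose. Gained became 4 for parental WX-02-23, 2 for WX-02-43, 1 for 10 nM and 1 for 100 nM PladB, 4 for WT-FOXA1 WX-02-23, 3 for WT-FOXA1 PladB, 11 for Dox, 10 for C258A-FOXA1 WX-02-23 and 2 for C258A-FOXA1 PladB. Lost became 3 for 10 nM and 8 for 100 nM PladB, 6 for WX-02-23 against WX-02-43, 19 for WT-FOXA1 WX-02-23, 9 for WT-FOXA1 PladB, 4 for Dox, 6 for C258A-FOXA1 WX-02-23 and 9 for C258A-FOXA1 PladB. Per 10000 peaks, the difference was -0.359 for WT-FOXA1 WX-02-23, -0.195 for Dox and -0.192 for PladB over 3 lines. Without the C258A-FOXA1 line, the PladB difference was -4.92 (exact permutation p = 0.05).

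With 1 library left out, the parental WX-02-23 difference ran from -1.83 to 0.667, above 0 without WX-02-23 replicate 3 and, at 0.167, without DMSO replicate 3. It ran from -3.33 to 0.667 for 10 nM PladB, above 0 without its replicate 3, and from -0.5 to 4.5 for C258A-FOXA1 WX-02-23, below 0 without DMSO replicate 1. For PladB over 3 lines it ran from -5.94 to -3.61 and stayed past the threshold. Gained ran from 1 to 2 for parental WX-02-23, from 0 to 1 for WX-02-43, from 0 to 1 for both PladB doses, from 2 to 4 for WT-FOXA1 WX-02-23, from 0 to 1 for WT-FOXA1 PladB, from 4 to 7 for Dox, from 2 to 5 for C258A-FOXA1 WX-02-23 and from 0 to 1 for C258A-FOXA1 PladB. Lost ran from 0 to 2 for 10 nM PladB, from 4 to 7 for 100 nM PladB, from 1 to 5 for WT-FOXA1 PladB, from 0 to 3 for Dox, from 2 to 3 for C258A-FOXA1 WX-02-23 and from 3 to 5 for C258A-FOXA1 PladB.

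In the 5 parental comparisons same-numbered replicates did not deviate together, with correlations from -0.0202 to 0.0233, so the numbers were not treated as pairs. The engineered lines, with 2 libraries a group, were not checked for pairing and were also tested without it. With a replicate block, the parental differences were unchanged, -0.667 for WX-02-23 (exact p = 0.75) and -6.33 for 100 nM PladB (exact p = 0.25, the smallest 3 pairs allow).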
